A study of Mus musculus with 1047 samples.

Results

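The comparison asked how microglia of aged white matter differ between mice labelled Trem2ko and wild-type (WT) mice. Members were all white matter cells of the aged Smart-seq2 table, chosen by the tissue and genotype labels alone: 433 of its 847 cells, in a series of 1047 GEO samples. Of these, 136 cells came from 6 WT animals (A2 to A7) and 297 from 6 animals labelled Trem2ko (A8 to A13). Reads were summed per animal and animals with at least 5 cells were kept, which left out A13 with its 4 cells and gave 6 WT animals against 5 labelled Trem2ko, with 293 cells.

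The 6 WT animals were C57BL/6J by label, all male, and 18 to 19 months old. Grey matter levels and fold changes below also include WT A1, labelled female and 19 months old, with 14 grey matter cells. For the others the labels give Trem2ko as both strain and genotype, without naming the allele, the background or littermate controls. A8, A9 and A10 were 20 months old, A11 and A12 were 18 months old and the left-out A13 was 28 months old. A9, A10, A11 and the left-out A13 were labelled female. In all groups, tissue was dissociated with the transcription blocker actinomycin D at 45 uM, and live CD45 and CD11b positive cells were sorted into plates. White matter was cut from corpus callosum, optic tract and medial lemniscus. Smart-seq2 amplifies whole transcripts from single sorted cells and uses no molecular identifiers, so reads are not molecules.

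TREM2 is a surface receptor of microglia that binds lipids and lipoproteins, APOE among them, and signals through the adaptor TYROBP (DAP12) and the kinase SYK. In white matter, microglia take up myelin debris, and in mouse models TREM2 is required for the full lipid-handling programme of disease-associated microglia (DAM). That programme is described in an early stage, with Apoe, Tyrobp and Lyz2, and a later stage, with Cst7, Lpl and Itgax, and homeostatic genes such as P2ry12 are lower in it.

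Plates went with the labels, and library size went with the plate series of A11 and A12. WT libraries held 898346 to 3946252 reads. A8, A9 and A10 held 2901355 to 3612766 reads, and A11 and A12, from another series of plates, held 59748018 and 53278422. No plate held both genotypes, so effects of the label and of the plates cannot be told apart. Sex and age also went partly with the label. All WT animals with white matter were male by label, while A9, A10 and A11 were female by label. A8, A9 and A10 were older than every WT animal. A11 and A12 also differed from A8 to A10 in age (18 against 20 months). Plate series, depth and age cannot be told apart where these sets of animals are compared. Xist and Eif2s3y went against the sex label of A8 (Xist at 33.1 CPM, counts scaled to 1000000 reads, and Eif2s3y at 0) and of A10 (0.554 and 21.6 CPM). The alternative restricted to animals male by label keeps A8, so effects of sex and of the label cannot be told apart there either. Microglia were recognised by their defining markers. Tmem119 lay between 5804 and 9200 CPM in WT and between 4768 and 11106 CPM in Trem2ko-labelled animals, and Cx3cr1 between 2886 and 4258 CPM and between 3101 and 5222 CPM. Markers of border-associated macrophages summed to at most 7.56 CPM in every animal, and none of the 6 measured passed the filter on low counts. Neutrophil markers summed to at most 90.1 CPM in WT and 53.5 CPM in the others. Monocyte markers summed to 56.7 CPM in WT A5 and at most 4.71 CPM in every other animal. Oligodendrocyte markers summed to 148 to 517 CPM in WT, highest in A3, and 194 to 384 CPM in labelled animals. At least 3 oligodendrocyte markers at 20 CPM or more were found in 9 of 16 cells of WT A5 and 3 of 17 of WT A3, and in at most 2 cells of any other animal. The part of these cells in the results was not tested, beyond the values without them given below. Summed microglial cells cannot tell fewer cells in a state from less RNA per cell in that state. Values below are CPM after scaling of library sizes by the trimmed mean of M-values (TMM), per animal or as mean ± SD over animals. Log2 fold changes are of Trem2ko-labelled against WT animals and carry an approximate SE.

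Trem2 was measured first, as a check of the labels. This protein-coding gene is on the plus strand of chromosome 17 (GRCm38, start 48346401, end 48354147). In WT animals Trem2 was 1837 CPM in A2, 3134 in A3, 3670 in A4, 1898 in A5, 3969 in A6 and 2542 in A7. The labelled animals A8, A9, A10, A11 and A12 held 266, 376, 716, 394 and 1836 CPM. Animals A8 to A11 lay well under every WT animal, whereas the animal labelled Trem2ko A12 was level with WT A2 (1836.5 against 1836.9 CPM). Before scaling, plates P6 and P7 of A12 held 2068 and 1802 CPM, inside the WT range. The 4 cells of A13 on plate P3 held 2737 CPM. So summed Trem2 went against the labels of A12 and A13, and every direction below rests on 5 labelled animals of which A12 is 1. Reads are given per gene symbol, and how they were counted along the gene is not given. A read therefore does not show whether a deleted part was transcribed.

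Trem2 reads in Trem2ko-labelled animals were unevenly spread over cells. With a level of 100 CPM as a dividing line, chosen after the values were seen, 134 of 293 cells of A8 to A12 lay under it, against 3 of 136 WT cells. From A8 to A12 the share under the line was 61.8%, 48.4%, 41.2%, 66.3% and 21.2% of an animal's cells. In WT animals it was 10.0% in A2 and 11.8% in A3, with none in the other 4. The upper cells of the low animals reached WT levels. The highest cell held 2290 CPM in A8, 1784 in A9, 3230 in A10 and 4910 in A11, while the median cell held 45.1, 280, 299 and 36.7 CPM. In A12 the median cell held 1543 CPM, against 1650 to 3024 CPM in WT animals. The lower quartile over cells was 137 CPM in A12, against 429 to 2254 CPM in WT animals. So A12 was level with WT A2 in its sum, but its lower cells held less Trem2. With each cell thinned to 20000 reads, which left out 2 Trem2ko-labelled and 5 WT cells, a Trem2 read was found in 74.5% ± 13.8 of cells (SD, n = 5) against 97.3% ± 4.36 (n = 6). Unthinned, the shares were 96.4% and 100.0%.

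**Figure D1:**
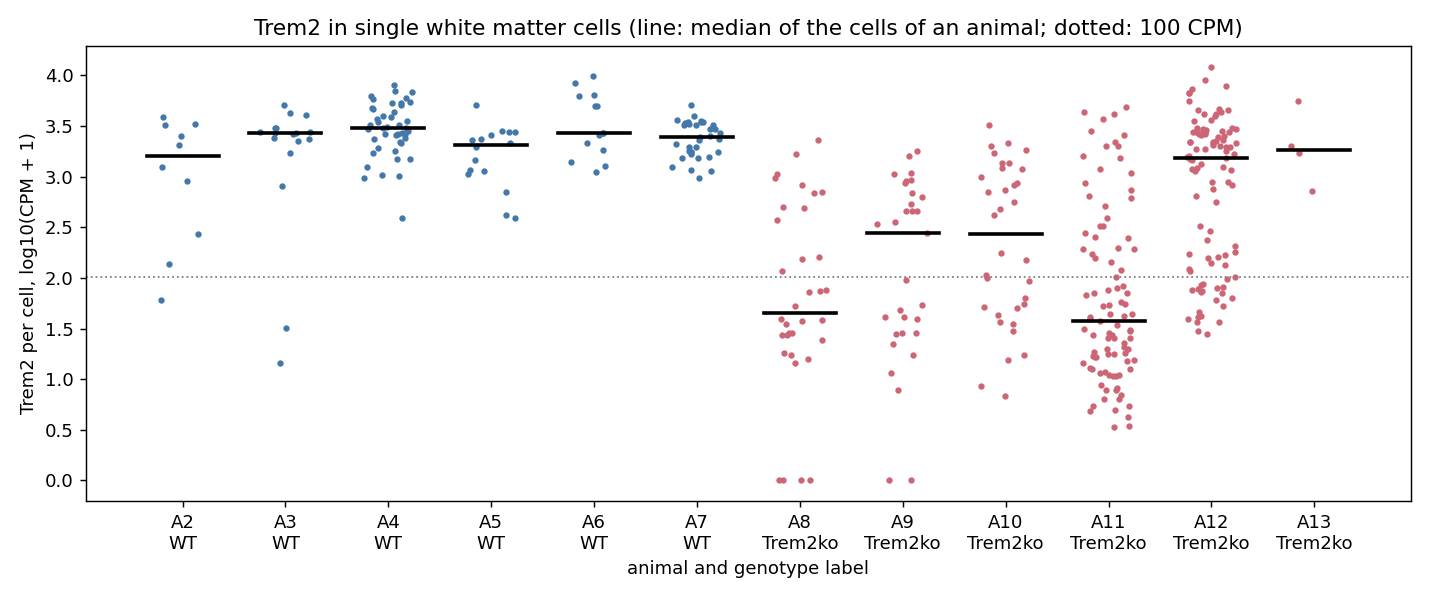
Each point is 1 white matter cell, with its Trem2 level as log10(CPM + 1) on the vertical axis, by animal; black lines are medians over cells and the dotted line marks 100 CPM. Cells of A8 to A11 spread from near 0 to WT levels. The 4 cells of A13 and most cells of A12 sit at WT levels, while 21.2% of A12 cells lie under the line.

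Across 8439 tested genes, 0 passed an adjusted p of 0.05 in either direction (0% called; edgeR quasi-likelihood, Benjamini-Hochberg). The lowest adjusted p was 0.665, shared by Ccr1, Dock9, Trem2 and Prkar1b. An unadjusted p under 0.05 was found for 132 genes with lower levels in Trem2ko-labelled animals (1.56% of genes) and 150 with higher levels (1.78%). The animals' values did not overlap for 16 genes on the lower side (0.19%) and 41 on the higher side (0.486%). By DESeq2, 11 genes passed on the lower and 3 on the higher side, and by limma-voom 17 and 3, with 2 genes, Rps27a and Ccr1, called by both. Without A12, 1 gene passed, Trem2. A12 was singled out for its Trem2 level, so this call is not independent of the value tested. The common biological coefficient of variation was 1.07. It is a single value fitted over all tested genes, and genes such as Itgb5, given below, varied less between animals of a group. With library sizes scaled by DESeq2 size factors, the genes with an unadjusted p under 0.05 were 175 lower and 120 higher, and with library totals alone they were 106 lower and 206 higher.

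Among the 5 genes chosen for their earlier reported pattern (Trem2, Lyz2, Apoe, Cst7, Itgb5), Trem2 averaged 718 ± 648 CPM in Trem2ko-labelled and 2842 ± 898 CPM in WT animals. The log2 fold change was -1.99 ± 0.43, with p = 0.000273 and adjusted p of 0.665 by edgeR, 0.00736 by DESeq2 and 0.182 by limma-voom. Without A12, the labelled animal with the highest Trem2, it was -2.69 ± 0.32, with adjusted p = 0.00464 by edgeR. With A8, A9 and A10 alone it was -2.64 ± 0.37, and with A11 and A12 alone -1.26 ± 0.49, with adjusted p of 0.0816 and 0.925. With A13 added, it came to -0.61 ± 0.67. Thus the size of the Trem2 difference depended on which labelled animals were used.

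Apoe encodes apolipoprotein E, a lipid carrier and TREM2 ligand, and lies on chromosome 7 (19696109 to 19699188). In WT animals it was 17852 CPM in A2, 75005 in A3, 96375 in A4, 68366 in A5, 7864 in A6 and 8886 in A7. The labelled animals A8, A9, A10, A11 and A12 held 6435, 11205, 8501, 12049 and 5520 CPM. WT animals had high (A3, A4, A5), intermediate (A2) and low values (A6, A7), and the low WT animals lay inside the range of the Trem2ko-labelled ones. Means were 45725 ± 38737 and 8742 ± 2862 CPM, with a log2 fold change of -2.39 ± 0.68 (p = 0.00445, adjusted p = 0.999 by edgeR, 0.0152 by DESeq2 and 0.293 by limma-voom). The Trem2ko-labelled animals were tightly grouped, and the WT spread accounted for most of the uncertainty in the mean. Leaving out WT A4 gave -2.04 ± 0.58 and leaving out WT A7 gave -2.61 ± 0.59.

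Apoe was unevenly spread over cells. The median cell of A8, A9, A10, A11 and A12 held 224, 431, 346, 377 and 560 CPM, far under the summed levels of 5520 to 12049 CPM. WT animals A2, A3 and A4 had median cells at 10268, 6692 and 32428 CPM, and A5 at 1743. In WT A6 and A7 the median cell held 274 and 495 CPM, as in the Trem2ko-labelled animals. The highest cell of each Trem2ko-labelled animal still reached 133872 to 284578 CPM, against 42045 to 355117 CPM in WT animals.

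Lyz2, which encodes lysozyme and lies on chromosome 10 (117277331 to 117282321), was also highest in WT A3, A4 and A5, in another order than Apoe. It was 1246 CPM in A2, 6423 in A3, 4896 in A4, 10771 in A5, 1330 in A6 and 1824 in A7. From A8 to A12 the labelled animals held 921, 1068, 872, 1458 and 1154 CPM. A11 alone lay above the lowest WT animals, so the groups overlapped. The log2 fold change was -2.01 ± 0.48 (p = 0.000716, adjusted p = 0.999 by edgeR, 0.0258 by DESeq2 and 0.144 by limma-voom). It was -1.54 ± 0.41 without WT A5, which has the highest Lyz2.

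Cst7, which encodes cystatin F, an inhibitor of cysteine proteases in the lysosome, lies on chromosome 2 (150570415 to 150578944). It was 126 CPM in A2, 444 in A3, 335 in A4, 370 in A5, 0 in A6 and 46.4 in A7. In Trem2ko-labelled animals it ranged from 6.50 in A11 to 51.3 in A8. WT A6 had no Cst7 read in its 14 cells and WT A7 lay inside the labelled range, so the groups overlapped. The log2 fold change was -3.12 ± 1.03 (p = 0.00771, adjusted p = 0.999 by edgeR, 0.158 by DESeq2 and 0.374 by limma-voom), and without WT A6 it was -3.39 ± 0.70. It was weaker at -2.79 ± 1.07 without WT A3, -2.50 ± 1.45 with animals male by label and -1.35 ± 1.10 with A13 added. With cells thinned to 20000 reads, a Cst7 read was found in 9.92% ± 7.78 of cells of Trem2ko-labelled animals and in 29.0% ± 18.9 of WT cells, with ranges of 5.05 to 23.5% and 0 to 56.3%. Unthinned shares were 22.9% and 31.6%. In A12, whose cells were read more deeply, the share was 5.05% thinned and 40.4% unthinned.

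Itgb5, which encodes integrin beta 5 and lies on chromosome 16 (33829665 to 33949338), was the panel gene with the least spread. It was 2522, 2834, 1941, 2776, 2247 and 2641 CPM in WT A2 to A7. From A8 to A12 the labelled values were 1751, 1572, 1787, 1424 and 1355 CPM. Every Trem2ko-labelled animal, A12 included, lay under every WT animal. Means were 1578 ± 192 and 2494 ± 342 CPM, with a log2 fold change of -0.66 ± 0.16 (p = 0.000762, adjusted p = 0.999 by edgeR, 0.126 by DESeq2 and 0.0388 by limma-voom). Against the same WT animals it was -0.54 ± 0.18 for A8 to A10 and -0.75 ± 0.23 for A11 and A12, whose plates held no WT cell. With 10 cells per animal it was -0.33 ± 0.31 (p = 0.2998). With A13 added, it was -0.07 ± 0.37. WT A4 had the lowest WT value, and its median cell, at 573 CPM, lay under those of A8, A9, A10 and A12.

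**Figure D2:**
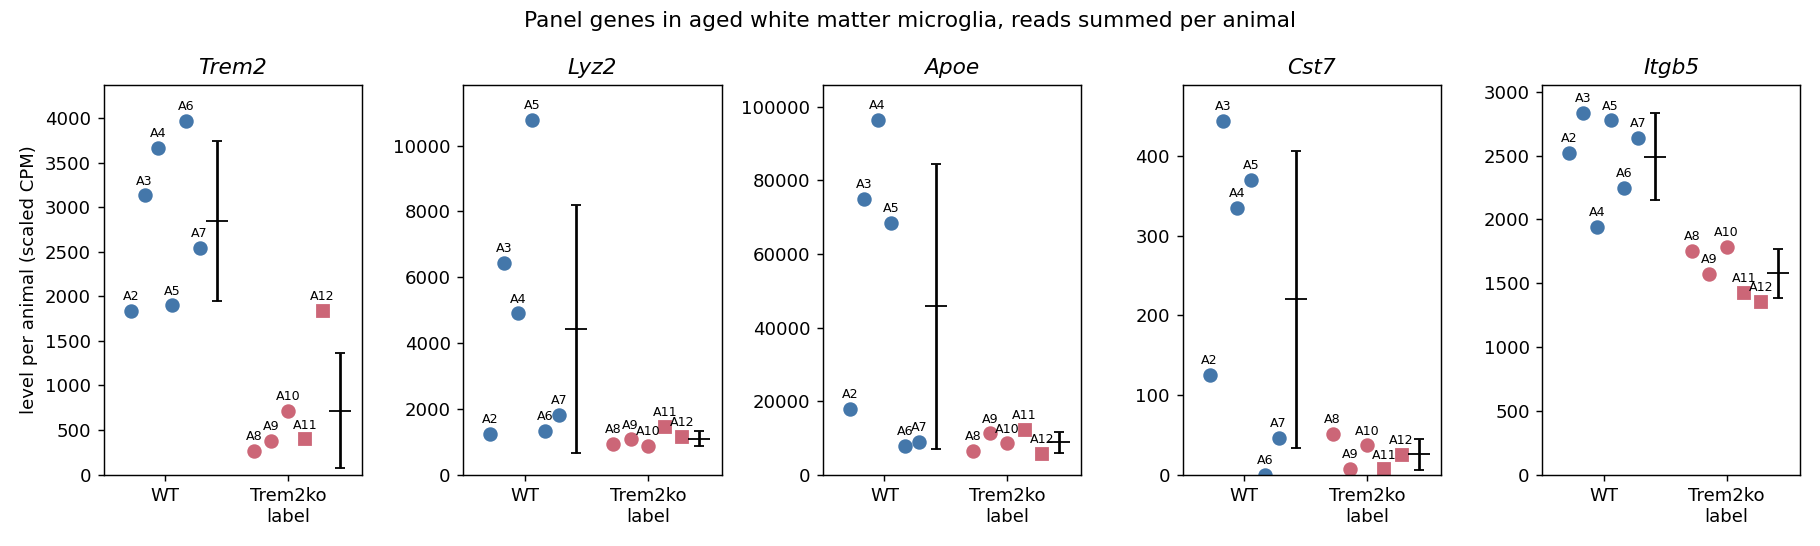
Level per animal (scaled CPM, linear axis) of the 5 panel genes in WT and Trem2ko-labelled animals; squares mark A11 and A12 of the deeper plates, and the bar beside each group is the mean with its SD. WT animals A3, A4 and A5 stand above the others for Apoe, Lyz2 and Cst7, while Itgb5 separates the groups at 1787 and 1941 CPM.

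**Figure D3:**
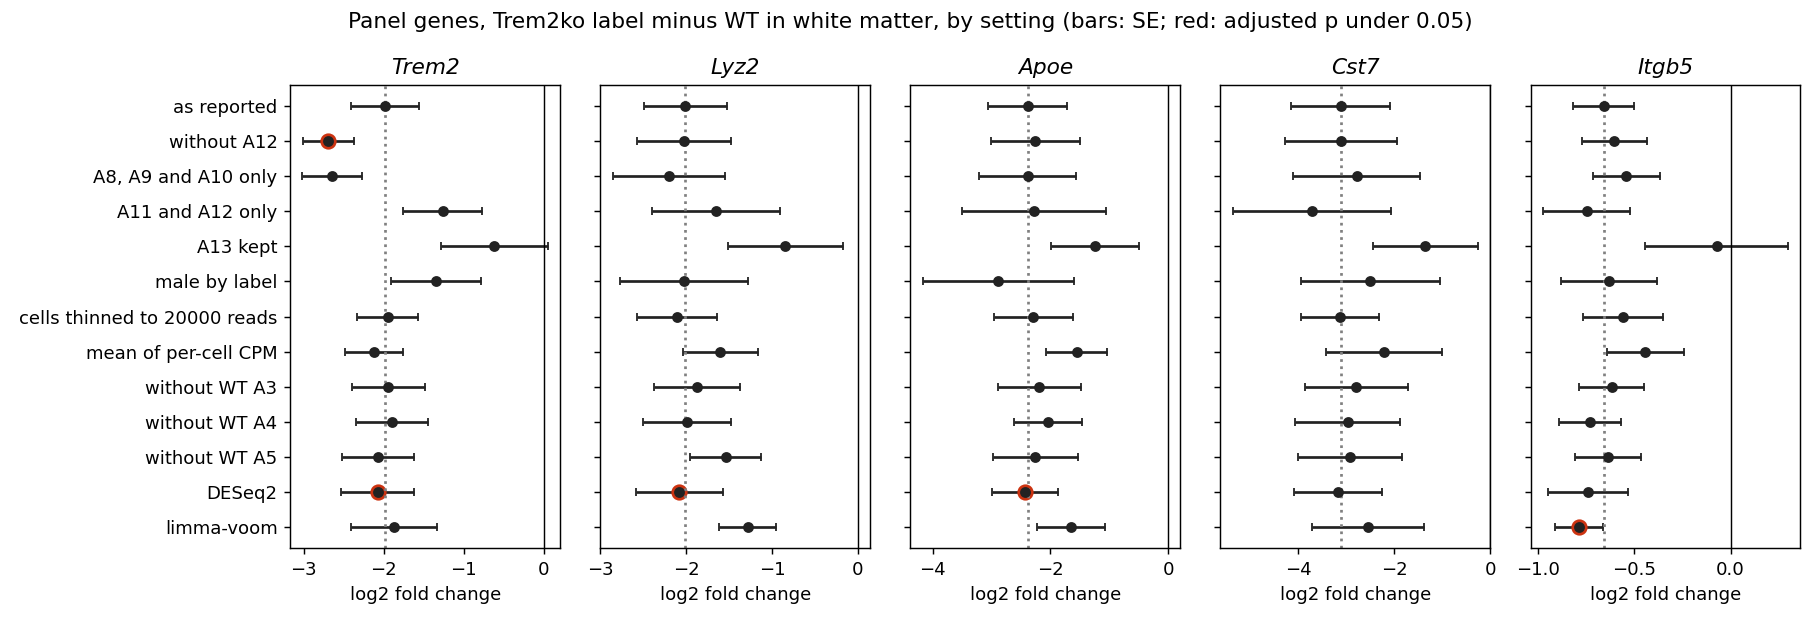
Log2 fold change of the panel genes (horizontal axis, with SE bars) under 13 of the settings tried; red rings mark an adjusted p under 0.05 and the dotted line is the value as reported. Adding A13 brought each gene nearer to 0, and leaving out A12 moved Trem2 to -2.69.

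The other genes of the TREM family lie beside Trem2 on chromosome 17. Treml2 (48299498 to 48312533), a TREM-like receptor, was 142 CPM in A2, 27.1 in A3, 3.14 in A4, 0 in A5, 163 in A6 and 5.04 in A7. In Trem2ko-labelled animals it was 0.270 in A8, 0 in A9 and A10, 0.241 in A11 and 3.41 in A12. WT values spanned the whole range from 0 upward, and the highest labelled value was that of A12. The log2 fold change was -6.00 ± 1.76 (p = 0.00359, adjusted p = 0.999, and 0.00736 by DESeq2), with WT A5 at 0. Treml4 (48264295 to 48275360) was 0 in all 6 WT animals and was found in A10 at 30.8, A11 at 34.2, A9 at 0.343 and A12 at 0.237 CPM, with 0 in A8. Treml1 (48359916 to 48367176) was at most 3.24 CPM and was 0 in the WT animals. A count of 0 over all WT reads allows up to 0.232 CPM, at 3 reads, for counting error only. Trem1 and Trem3 were at most 1.62 CPM in every animal, and Treml6 is not analysed here. Treml1, Treml4, Trem1 and Trem3 did not pass the filter on low counts.

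Of the ligands, adaptors and kinases of TREM2, 30 of 33 were tested. An unadjusted p under 0.05 was found for 3 with lower levels (Trem2, Apoe, Tyrobp) and 1 with higher levels (Lat2). Of all genes, 1.56% were lower and 1.78% higher with such a p, and Trem2 and Apoe are also panel genes. The median log2 fold change was -0.12, against 0.08 over all genes. The median was -0.31 with A8 to A10 (19 of 30 negative) and 0.18 with A11 and A12 (12 of 30), so its sign differed between these sets of animals. Tyrobp, the signalling adaptor, averaged 1666 ± 276 CPM in Trem2ko-labelled and 2510 ± 742 CPM in WT animals (-0.59 ± 0.22, p = 0.0142). Tyrobp ranged from 1330 to 2097 CPM in the first and from 1401 in A2 to 3489 in A3 in the second, so the groups overlapped. Lat2, a linker protein, had a log2 fold change of 0.67. Syk, Plcg2 and Inpp5d, which act downstream, had log2 fold changes between 0.00 and 0.27.

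DAM stage 1 genes had lower means in Trem2ko-labelled animals throughout. All 10 members were tested and had negative log2 fold changes, 4 with an unadjusted p under 0.05 (Apoe, Lyz2, Fth1, Tyrobp), and the median was -0.50. Of all 8439 genes, 3856 were negative and 1.56% were lower with such a p. Apoe and Lyz2 are also panel genes. The median was -0.41 with A8 to A10 and -0.65 with A11 and A12, with 9 of 10 negative in the second. Fth1, the ferritin heavy chain that stores iron, was 2546 CPM in A2, 5790 in A3, 7933 in A4, 6795 in A5, 2338 in A6 and 4123 in A7. It was between 2482 and 2774 CPM in the 5 labelled animals. The labelled animals differed little, with an SD of 114, while the WT SD was 2293. The log2 fold change was -0.93 ± 0.27 (p = 0.00357). Ctsd and B2m, at -0.39 ± 0.19 and -0.29 ± 0.19, did not reach an unadjusted p of 0.05.

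DAM stage 2 genes also had mostly lower means, by an amount that differed between A8 to A10 and A11 and A12. Of all 8439 genes, 3856 were negative and 1.56% were lower with an unadjusted p under 0.05. Of 18 tested members of 20, 17 had negative log2 fold changes, 3 with an unadjusted p under 0.05 (Trem2, Cst7, Lpl), and the median was -0.98. With A8 to A10 it was -1.15 and with A11 and A12 it was -0.26, with 13 of 18 negative. Of the 3 members under that p, Trem2 and Cst7 are also panel genes, which leaves Lpl. Lpl encodes lipoprotein lipase and was 37.5 to 968 CPM in WT animals and 27.2 to 232 CPM in labelled ones, with a log2 fold change of -1.76 ± 0.69 (p = 0.021). Spp1, which encodes osteopontin, was 1.02 CPM in WT A2 and 1809 in WT A5, and 347 in A12, against 0 to 39.7 in the other 4 labelled animals. Itgax was 0 in WT A2 and A6 and 30.4 CPM in A12, against at most 0.54 in the other labelled animals. Thus A12 had the highest summed Spp1 and Itgax of the labelled animals, both genes being chosen after their values were seen. By cells the order differed for Spp1, which after thinning had a read in 30.0% of the cells of A9 and 15.2% of A12. After thinning, Itgax had a read in 5 of 99 cells of A12 and in 0 of the other labelled animals. Unthinned, it had a read in 25 of 99 cells of A12, 8 of 95 of A11, 2 of 34 of A8, 1 of 34 of A10 and 0 of 31 of A9. In A12, Lyz2 and Cst7 lay inside the range of the other labelled animals, and Apoe lay under it.

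Homeostatic genes had mostly positive differences of small size. Of 24 tested members, 18 were positive, where 4583 of all 8439 genes were positive and 1.78% were higher with an unadjusted p under 0.05. Of the members, 3 were higher with such a p (P2ry12, Gpr34, Mef2c), and the median was 0.26. Gpr34, a lysophosphatidylserine receptor, lay between 86.3 and 96.8 CPM in the 6 WT animals and between 126 and 279 CPM in the labelled ones, without overlap (0.96 ± 0.35, p = 0.0138). P2ry12, the ADP receptor that steers processes, was 1517 to 2824 CPM in WT animals. It was 2032 in A8, 2021 in A9 and 2637 in A10, inside the WT range, and 4243 in A11 and 4724 in A12. Its log2 fold change was 0.16 with A8 to A10 and 1.25 with A11 and A12, so the P2ry12 difference rested on A11 and A12. Tmem119 and Cx3cr1 had log2 fold changes of 0.23 and 0.17, and these sets of labelled animals went opposite ways. Tmem119 was at 0.52 with A8 to A10 and -0.25 with A11 and A12. Cx3cr1 was at -0.12 with A8 to A10 and 0.62 with A11 and A12. Mef2c, a transcription factor, was 496 to 559 CPM in labelled and 217 to 499 CPM in WT animals (0.55 ± 0.24).

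**Figure D4:**
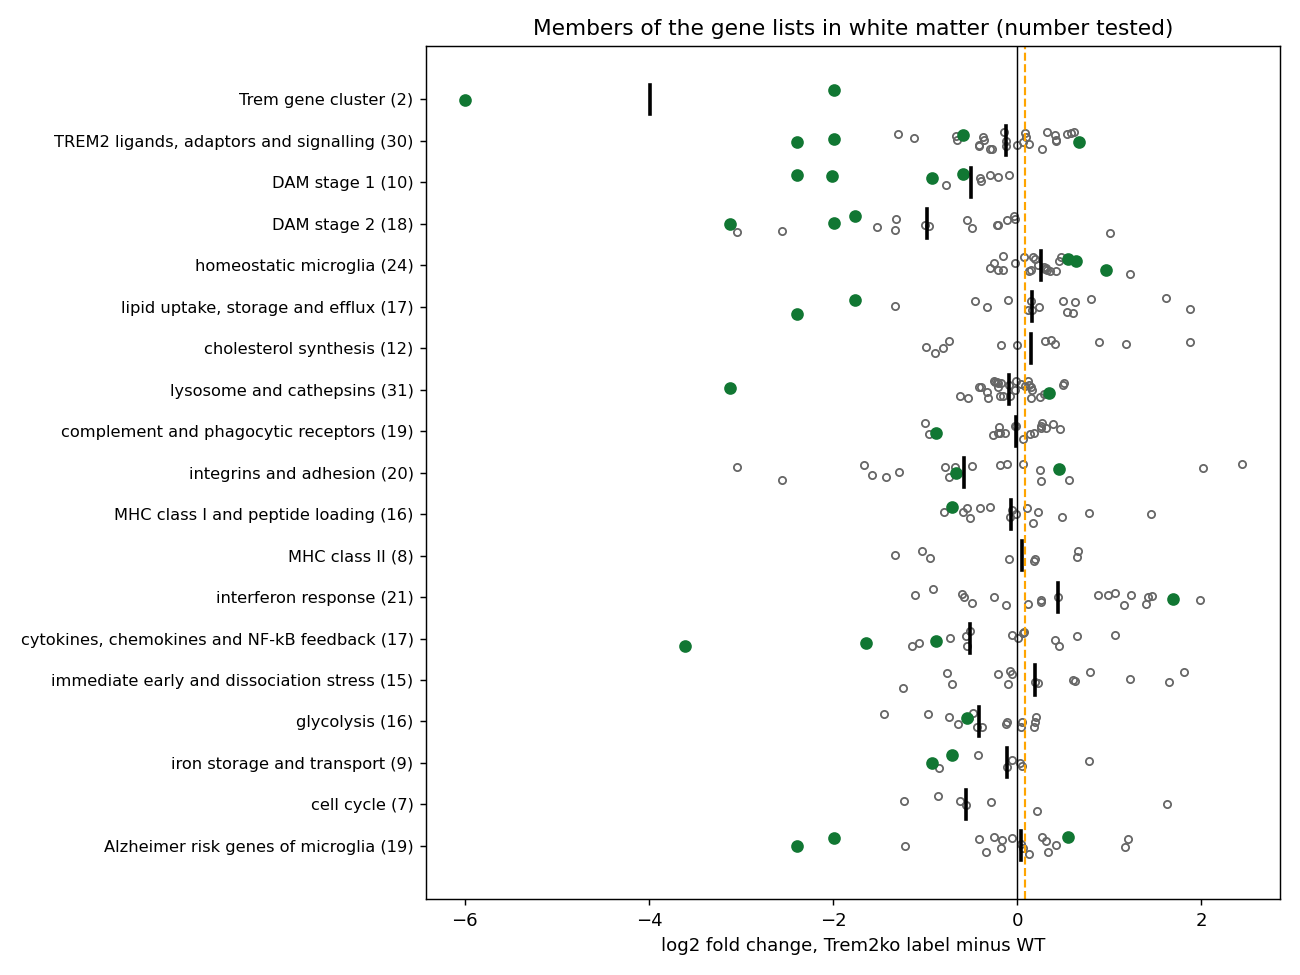
Log2 fold change of each tested member (points) by gene list, with the number tested in brackets; filled points have an unadjusted p under 0.05, black bars are list medians and the dashed line is the median of all genes tested, 0.08. DAM stage 1 and stage 2 members lie mostly left of that line, while homeostatic and interferon members lie mostly right.

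Among other lists, lipid handling genes were mixed. Of all 8439 genes, 4583 were positive, and 1.56% were lower and 1.78% higher with an unadjusted p under 0.05. Of 17 tested lipid uptake, storage and efflux genes, 11 were positive, and Apoe, a panel gene, and Lpl alone had an unadjusted p under 0.05. No cholesterol synthesis gene of 12 tested reached that level. Of 31 lysosomal genes, 19 were negative with a median of -0.09. Lgmn, the protease legumain, was 8939 to 11463 CPM in labelled and 7113 to 9738 CPM in WT animals, with a log2 fold change of 0.35 ± 0.12 (p = 0.0106). Integrin and adhesion genes had a median of -0.57, which was -0.68 with A8 to A10 (17 of 21 negative) and 0.07 with A11 and A12 (10 of 21). Itgb5, a panel gene, and Cd81 (0.46 ± 0.18) were the members with an unadjusted p under 0.05. Cd81, a tetraspanin, was 5876 to 6288 CPM in A8 to A10 and 9261 and 8614 CPM in A11 and A12. WT animals held 3728 to 6616 CPM, so the higher Cd81 mean also rested on A11 and A12.

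Cytokine and NF-kB genes had 3 of 17 members with an unadjusted p under 0.05, all lower in labelled animals. Of all 8439 genes, 3856 were negative, and 1.56% were lower and 1.78% higher with such a p. The median of this list was -0.63 with A8 to A10 and 0.15 with A11 and A12. Tnf was 3.19 to 97.5 CPM in WT and 0.102 to 10.4 CPM in labelled animals (-3.61 ± 1.28). Cxcl16, a membrane-bound chemokine and scavenger receptor, was 73.3 to 341 CPM in WT and 32.1 to 108 CPM in labelled animals (-1.64 ± 0.46, p = 0.00255). Cd14, a co-receptor for lipopolysaccharide, had a WT mean raised by A6 at 3626 CPM, and the other WT animals lay between 803 and 1352 CPM. Interferon genes had a median of 0.44 with 14 of 21 positive. Oas1a, an antiviral enzyme, alone had an unadjusted p under 0.05 (1.70 ± 0.72, p = 0.0307). MHC class I genes had 1 of 16 members under that p, H2-T23, and MHC class II genes 0 of 8. Immediate early genes, which mark dissociation stress, had 0 of 15. Their median was 0.29 with A8 to A10 and -0.57 with A11 and A12, and that of MHC class II genes 0.10 and -0.77. Complement and phagocytic receptor genes had 1 of 19 under that p (Cd14) and a median of -0.01. Of 16 glycolysis genes 11 were negative with a median of -0.41, and Aldoa alone had such a p. Iron genes had 2 of 9 (Fth1, and Trf, which encodes transferrin), both lower, and cell cycle genes 0 of 7. Among 19 tested Alzheimer risk genes expressed by microglia, 9 were negative and the median was 0.04, with Trem2, Apoe and Mef2c as the 3 under that p. Trem2 and Apoe are also panel genes.

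In each direction, 12 genes with at least 20 CPM were named by their p. On the lower side 3 of them were panel genes and 4 encode cytosolic ribosomal proteins. Rps27a was 272 to 438 CPM in WT and 125 to 226 CPM in labelled animals, without overlap (-1.07 ± 0.28, p = 0.00164, and adjusted p = 0.0207 by DESeq2). Rpl32, Rps16 and Rps15 had log2 fold changes of -1.04, -0.93 and -1.08. All 82 tested cytosolic ribosomal protein genes, a list made after these values were seen, gave 80 negative members, 36 of them with an unadjusted p under 0.05, and a median of -0.67. Over all genes 3856 of 8439 were negative and 1.56% were lower with such a p. Part of this rested on A11 and A12. Rps29, for example, was 1381 to 1760 CPM in A8 to A10, inside the WT range of 1218 to 3048, and 362 and 447 CPM in A11 and A12. Grey matter differences had the same sign for the 4 named genes, for example -0.98 ± 0.34 for Rpl32.

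Prkar1b, a regulatory subunit of protein kinase A, was 28.7 to 464 CPM in WT animals. From A8 to A12 it was 10.5, 9.94, 14.9, 0.241 and 10.3 CPM, without overlap (-4.29 ± 0.94, p = 0.000315). Its grey matter log2 fold change was -4.08 ± 1.27. Pex6, a peroxisome assembly protein, also showed no overlap, at 27.1 to 247 CPM in WT and 1.12 to 24.8 CPM in labelled animals (-3.28 ± 0.89), and Ubqln4 overlapped (-5.30 ± 1.39). Lag3, an inhibitory receptor, was 457 to 1504 CPM in WT and 300 to 538 CPM in labelled animals (-1.09 ± 0.30).

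On the higher side, Tpst1, which sulphates tyrosines, was 0 to 10.6 CPM in WT animals and 104, 35.0, 60.8, 96.4 and 46.7 CPM in A8 to A12, without overlap (3.67 ± 0.96, p = 0.0015). Its grey matter levels were 16.1 ± 19.9 CPM in WT and 11.3 ± 8.77 CPM in labelled animals. Golgb1, Dip2b, Yars and Tubg1 did not overlap either, with log2 fold changes of 1.84, 1.48, 1.64 and 3.20. Mgat4a, a glycosyltransferase, was 164 to 351 CPM in WT and 299 to 943 CPM in labelled animals (1.17 ± 0.30). Sirt7, a deacylase, had a log2 fold change of 0.97 ± 0.29.

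The 2 genes with the lowest p, Ccr1 and Dock9, lay under 20 CPM on average and are named after their values were seen. Ccr1, a chemokine receptor, was 0 in 5 WT animals and 1.26 CPM in A3, against 23.2, 51.7, 33.4, 20.6 and 37.4 CPM in A8 to A12 (7.37 ± 1.44, p = 9.63e-05). Its reads came from few cells, 3.03 to 15.2% of cells of a labelled animal after thinning to 20000 reads. Ccr1 is also expressed by neutrophils and monocytes. Cells with at least 3 neutrophil markers at 20 CPM or more numbered 7, 2, 0, 5 and 4 from A8 to A12. In WT animals they numbered 6 in A3, 2 in A4, 1 each in A5 and A6 and 0 in A2 and A7. Without cells that carried markers of another type, the Ccr1 log2 fold change was 6.945, and those of Apoe, Lyz2, Cst7 and Itgb5 were -2.71, -2.02, -3.44 and -0.76. No white matter cell reached 3 monocyte markers at that level, so this setting removed none for them, and the part of monocytes was not tested. Dock9 was at most 3.78 CPM in WT and 17.9 to 71.7 CPM in labelled animals (5.05 ± 1.07), and in grey matter it was 24.9 ± 23.9 CPM in WT and 3.75 ± 2.65 CPM in labelled animals.

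Whether the genotype difference in white matter was itself different in grey matter was tested in the 11 animals with both tissues, with the animal as a block. Of 11437 genes tested, 0 passed (0%), with a lowest adjusted p of 1. Grey matter levels and log2 fold changes came from a separate fit of 12 libraries, which adds WT A1 to these 11 animals. For Lyz2, grey matter levels were 543 ± 169 CPM in WT and 571 ± 169 CPM in labelled animals, and the difference of genotype effects was -1.65 ± 0.44 (p = 0.00156, adjusted p = 1). Cst7 in grey matter averaged 4.32 ± 5.56 CPM in WT and 23.4 ± 18.5 CPM in labelled animals, and the difference of effects was -5.53 ± 2.00 (p = 0.0133). Itgb5 gave -0.58 ± 0.26 (p = 0.0365). Trem2 in grey matter was 653 ± 415 CPM in labelled and 3144 ± 1272 CPM in WT animals (-2.27 ± 0.35, adjusted p = 0.0294), and the difference of effects was 0.14 ± 0.35. Trem2 differed in grey matter with A12 at 1363 CPM, under every WT animal. For Apoe, the grey matter log2 fold change was -1.71 ± 0.45 (p = 0.00125), and the difference of effects was -0.44 ± 0.90, which turned to 0.11 ± 0.47 without WT A4.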

How the data were processed

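The deposited table holds raw read counts per gene and cell, per the values of the file, which are whole numbers. Per the submitters' processing notes, bcl2fastq, FastQC and Trim Galore were used, with mm10 (GRCm38). Which aligner and counter made the table is not given in the sources used here. This table joins parts of 489 and 358 cells. In the second part were A11, A12 and A13, and in the first all other animals. Of 18081 symbols, 46 renamed pairs were joined, 4491 with reads in 1 part only (0.147% of reads) and 243 with 0 reads were left out, and 13301 were kept.

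Reads were summed per animal and tissue (at least 5 cells). Genotypes were compared with edgeR 4.0.16 quasi-likelihood tests (robust dispersion, TMM scaling, filterByExpr), at a Benjamini-Hochberg adjusted p of 0.05. An SE is the size of the log2 fold change over the square root of F. DESeq2 1.42.0 and limma 3.58.1 were alternatives. Gene positions are those of GENCODE vM21 on GRCm38. The difference of genotype effects used 22 libraries with the animal as a block, which the animal names in the labels give. Scripts were tested on simulated data. Alternatives covered scaling, tool, filters, cells, plates, sex and left-out animals.

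Cells with at least 3 markers of another type at 20 CPM or more each were left out in 1 alternative. Genes were named by a rule: a panel of 5, the 12 lowest p in each direction with a mean of at least 20 CPM, and the 3 members with the lowest p of each list. The second part of the rule passed over spike-ins, sex-linked markers (Xist, Tsix, genes on Y) and gene models without a name. The members, lists and rule were chosen with earlier results of these data known, so none of them is independent support. Ccr1, Dock9, Rps29, Spp1, Itgax, Syk, Plcg2, Inpp5d, Tmem119 and Cx3cr1 were chosen after their values were seen.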

Additional observations from a re-analysis of the deposited data

Results flagged for a closer look

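In 88 groups of animals (44 genes in each genotype), 7 had 1 animal far from the others by Dixon's test on log2(CPM + 1), where chance flags about 1 in 20 groups. The animal labelled Trem2ko A12 was the highest for Treml2 at 3.41 CPM and the lowest for Polr1c, an RNA polymerase subunit, at 47.9 CPM. The animal A11 was the lowest for Prkar1b at 0.241 CPM. Among WT animals, A6 was the lowest for Cst7 at 0.0 CPM and the highest for Cd14 at 3626 CPM, A4 was the lowest for Yars at 6.59 CPM, and A3 was the highest for Ccr1 at 1.26 CPM, with the other 5 at 0.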

How the results depend on the processing

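Counts of 0 called genes were the same under most settings. DESeq2 called 11 genes lower and 3 higher in white matter and 31 genes for the difference of genotype effects, limma-voom called 17 and 3, and the mean of per-cell CPM called 1 higher, against 0 for each by edgeR. Leaving out 1 animal gave 0 to 1 lower and 0 higher genes, the 1 being Trem2 without A12, and 0 for the difference of effects. Without the replicate block, in which the tissues of an animal are paired, 0 genes passed for the difference of effects, and 0 with the 2 repeated grey matter wells of A5 counted once, an alternative chosen after seeing the data. No paired analysis was possible between genotypes because they share no animal. With A13 kept, the log2 fold changes of Ctsd and Aldoa turned to 0.16 and 0.024; the cause was not tested. No other of the 44 genes followed changed sign in a setting that tested it. Ubqln4 was tested in 21 of these settings, Treml2 in 22 and Trem2 in 30. Tmem119 and Cx3cr1 were not among the 44, and their signs differed between A8 to A10 and A11 and A12. The median of all genes was 0.08 with TMM, 0.00 with DESeq2 size factors, 0.19 with library totals, 0.45 with limma-voom and 0.43 with per-cell means. Shares of cells with a read moved with depth. At 50000 reads, Apoe and Lyz2 were found in 98.9% and 95.7% of Trem2ko-labelled cells. With at least 2 reads asked for, Trem2 was in 57.5% and Lyz2 in 76.3% of Trem2ko-labelled cells, and Apoe in 93.0% of WT cells. Without thinning, Apoe was in 100.0%, Lyz2 in 98.2%, Trem2 in 96.4% and Cst7 in 22.9% of Trem2ko-labelled cells. WT libraries of at most 3946252 reads limit the precision of low genes.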
